A study of Homo sapiens with 6 samples.

Results

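The replication-independent histone variant genes were read from the RNA-Seq counts of A549, a line of human lung adenocarcinoma cells, transfected with an siRNA against the long noncoding RNA FAM83H-AS1 or with a negative control siRNA and harvested a day later, with 3 libraries per group. The members were chosen by their symbols: H2AFZ and H2AFV for H2A.Z, H2AFX for H2A.X, H2AFJ for H2A.J, H2AFY and H2AFY2 for macroH2A, H3F3A and H3F3B for H3.3, and H1F0 and H1FX for linker histones. All 10 were found among the 40173 genes of the count table, and 9 of them were among the 15250 genes that passed a filter on low counts and were tested. H2AFY2 had 0 counts in all 6 libraries.

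Both groups were the same wild-type line and differed in the siRNA that they received; the labels do not say whether the 3 libraries of a group came from separate cultures, so that the p-values below measure the spread between libraries. Of the 5 epithelial markers examined, all had counts in these libraries. KRT8 and KRT18 had at least 9738 counts in every library, whereas KRT19 had 5 to 17, CDH1 8 to 19 and EPCAM 32 to 59. Of 5 alveolar markers, surfactant genes among them, 3 had under 5 counts in every library and 2 of those had none. Library totals ranged from 9738291 to 17742643 counts, the highest being that of control replicate 3, which stood apart from the other controls since the chi-square over genes, divided by its degrees of freedom, was 24.7 and 29.2 against them and 6.76 between the other two. The targeted FAM83H-AS1 fell from 15.9 ± 1.39 to 4.87 ± 0.617 CPM (counts scaled to a common library size; SD, n = 3 per group), with a log2 fold change of -1.70 (adjusted p = 7.99e-05 by edgeR).

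Most histone genes lie in clusters, are transcribed in S phase and give mRNAs that end in a stem-loop in place of a poly(A) tail. The variant genes lie outside the clusters, are transcribed throughout the cell cycle and mostly give spliced and polyadenylated mRNAs, so that their products can be placed into chromatin without DNA replication. H2A.Z marks promoters and is exchanged by the SRCAP and p400 complexes, H3.3 is deposited by HIRA or by DAXX and ATRX, H2A.X is phosphorylated beside DNA breaks, macroH2A is enriched on silent chromatin, and the linker histones bind the DNA between nucleosomes.

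Where a protein is encoded by several genes, the sequences decide how well short reads can be assigned to each. H3F3A and H3F3B encode the same H3.3 protein, but their coding sequences differ at 88 of 411 bases. The following 30 bases, from base 208 of the coding sequence, are shown because they are the window in which the genes differ most, with bases that differ from H3F3A in capitals, and because the rows annotated as pseudogenes carry the H3F3A letters there.
H3F3A: cgtctggtgcgagaaattgctcaggacttt
H3F3B: AgGTtggtgAgGgaGatCgcGcaggaTttC
H3F3AP4: cgtctggtgcgagaaattgctcaggacttt
H3F3AP6: cgtctggtgcgagaaattgctcaggacttt
The whole coding sequence of H3F3A, on chr1:226061851-226072001 of GRCh38, was identical to H3F3AP4 on chromosome 2, and H3F3AP6 on chromosome 4 differed from it at 3 bases. H3F3BP1, on chromosome 13, was named after H3F3B but matched H3F3A at 397 of 403 bases and H3F3B at 311. All 50-base words of the H3F3A coding sequence occurred in transcripts of other genes. Of those of H3F3B 26.5% did, shared with the retrocopy H3F3C. Of the 100-base coding words, all of H3F3A and 2.56% of H3F3B did.

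The H2A.Z pair was compared in the same way. H2AFZ, on chr4:99948086-99950388, and H2AFV, on chr7:44826791-44848083, differed at 76 of 387 coding bases, with the following window from base 94 shown for the same reason and capitals for bases that differ from H2AFZ.
H2AFZ: cgtattcatcgacacctaaaatctaggacg
H2AFV: cgCatCcaCAgacacTtGaaGActCgCacC
Of the coding words, 17.8% of H2AFZ and 30.8% of H2AFV occurred in other genes. Of those of H1FX 42.0% did, shared with H1FX-AS1 on the other strand, and of those of H2AFY 12.1%, shared with AC026691.1 and C5orf66. Of those of H2AFX 1.31% did, while none of the words of H1F0 and H2AFJ did. For 100-base words the shares were 0% for H2AFZ, 18.8% for H2AFV, 27.4% for H1FX, 7.75% for H2AFY and 0% for H2AFX.

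Most members carried the letters of a polyadenylation signal at their annotated 3′ ends. A polyadenylation signal (AATAAA or ATTAAA, on the transcript strand) was found within 50 bases of an annotated transcript end in 9 of the 10 members, all but H2AFY, compared with 81.9% of 19669 coding genes and 31.0% of 71 clustered histone genes in GENCODE 29. The histone 3′ stem-loop, searched as a fixed pattern of letters, was found in a transcript of 1 member, H2AFX. It was found in 0.173% of coding genes and 43.7% of the clustered genes. A loop with other letters, or past an annotated transcript end, is missed by this search, so that genes without a hit can still have a loop. The ends of H2AFZ, H1FX and H2AFX, the 3 members with an unadjusted p under 0.05 by edgeR, are shown with the signal in capitals. The loops of H2AFX and of the clustered gene HIST1H2AC follow, also in capitals. The window with the loop of H2AFX ends 1037 bases before the end of the annotated transcript, and this gene is known to give both a short mRNA that ends at the loop and a longer polyadenylated mRNA.
H2AFZ: ggataagttcAATAAAggtcatatcccaaa
H1FX: ttgggcacAATAAAgcgtttaaacctttca
H2AFX: tggactaattttATTAAAggattgtttttt
H2AFX stem-loop: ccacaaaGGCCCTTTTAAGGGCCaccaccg
HIST1H2AC stem-loop: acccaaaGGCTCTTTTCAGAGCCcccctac

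Levels compared between genes are in CPM per kilobase of annotated exon. In the control libraries H2AFZ was the highest member at 276 ± 20.5 CPM per kilobase (SD, n = 3). H2AFY at 91.5 ± 2.96, H3F3B at 87.2 ± 2.07 and H1FX at 77.1 ± 9.53 CPM per kilobase followed, and over the control libraries H2AFY overlapped H3F3B and H3F3B overlapped H1FX, as no other neighbours in the order did. H2AFX had 52.1 ± 6.62, H1F0 37.9 ± 3.11, H2AFV 31.1 ± 3.17 and H2AFJ 22.3 ± 3.82 CPM per kilobase. The row of H3F3A was the lowest at 7.56 ± 1.31 CPM per kilobase, a place that covers only the reads counted on this row and not those on the rows of its pseudogenes, which are described below with H3F3A. The place of H2AFV rests on the length used, since its exons span 4.75 kilobases in all, and per kilobase of the 752-base transcript with its full coding sequence the level was 196 CPM. A count of 0 for H2AFY2 allows up to 3 counts per library, or 0.308 CPM in the shallowest and 0.169 CPM in the deepest, counting error only.

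After silencing, 1 of the 9 tested members fell past an adjusted p of 0.05 and 0 rose, where 8.27% of all genes tested fell and 8.75% rose past it by edgeR. No member changed by more than 2-fold with an adjusted p under 0.05, the rule that called 2.14% of all genes (1.14% higher and 0.997% lower), and the count was also 0 by DESeq2 and at an unadjusted p under 0.05. At an unadjusted p under 0.05, 3 members were lower and 0 higher, where 15.8% of all genes were lower and 16.3% higher. The groups did not overlap for 4 members, all lower in the silenced libraries, whereas 36.6% of all genes had no overlap, 17.5% with lower and 19.1% with higher silenced libraries. The log2 fold change lay below 0 for 8 of 9 members, as for 50.1% of all genes, and its median was -0.17 for the members and 0.00 for all genes.

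**Figure D1:**
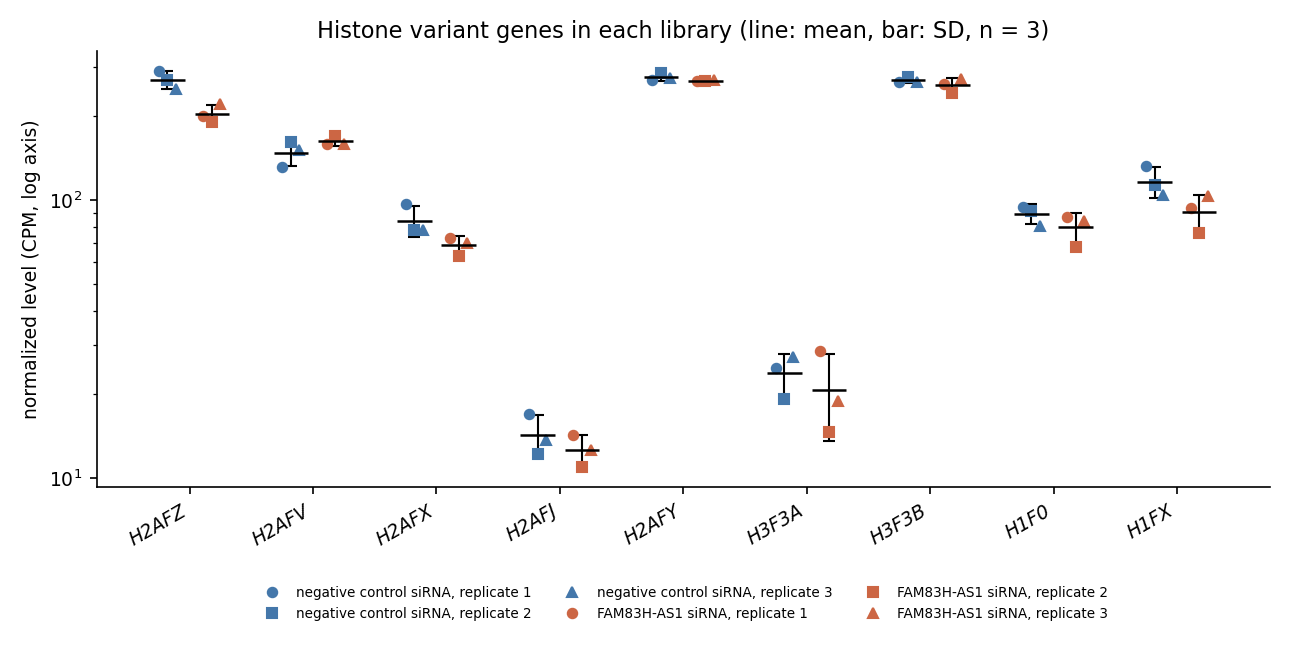
Normalized level of the 9 tested members in CPM (log axis) in the 3 control and 3 silenced libraries, with a line at the mean and a bar for the SD. The silenced libraries lie below all controls for H2AFZ, H2AFX, H2AFY and H1FX, by the most for H2AFZ and by little for H2AFY.

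The member that fell was H2AFZ, the main gene of H2A.Z. Its level was 291, 269 and 251 CPM in control replicates 1, 2 and 3, and 199, 189.9 and 221 CPM in silenced replicates 1, 2 and 3. Every silenced library lay below every control. The mean fell from 270.2 ± 20.1 to 204 ± 15.99 CPM (SD over 3 libraries each), or to 75.3% of the control, with a log2 fold change of -0.41 (SE 0.0824, 95% interval -0.59 to -0.23, adjusted p = 0.00824 by edgeR). In RNA from whole cultures, fewer cells with the mRNA and less of it per cell cannot be told apart. The adjusted p stayed under 0.05 with each library left out in turn (highest 0.0456, without silenced replicate 1) and was 0.00774 without control replicate 3. Rows of 6 annotated H2AFZ pseudogenes held 6.42% to 8.69% of the summed counts of gene and pseudogenes, and adding them to the gene gave a log2 fold change of -0.40 (adjusted p = 0.0107 by edgeR).

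H2AFV, the second gene of H2A.Z, did not pass the test. Its level was 131, 161 and 150.4 CPM in the controls and 159, 170.1 and 158 CPM in the silenced libraries. The groups overlapped, and the log2 fold change was 0.14 (95% interval -0.05 to 0.32, adjusted p = 0.300 by edgeR). H2AFZ thus took a smaller share of the counts of both genes, which does not depend on the scaling between libraries. The share was 68.9%, 62.5% and 62.5% in the controls and 55.7%, 52.8% and 58.3% in the silenced libraries. The groups did not overlap, and the mean share was lower by 9.05 percentage points (64.6% ± 3.68 against 55.6% ± 2.78, SD, n = 3 each). With 3 libraries against 3, the exact permutation test (two-sided) cannot go below p = 0.1, the value found here, or 0.3 when adjusted over 3 pairs. The pair of H2AFY and H2AFY2 was among them, though its share could not differ since H2AFY2 had no counts. With counts divided by exon length, the difference was 4.0 percentage points in the same direction (89.8% in the controls and 85.8% in the silenced libraries). These shares rest on the 4.75 kilobases of all H2AFV exons. Per kilobase of the transcript with the full coding sequence, the control levels were 276 CPM for H2AFZ and 196 CPM for H2AFV.

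**Figure D2:**
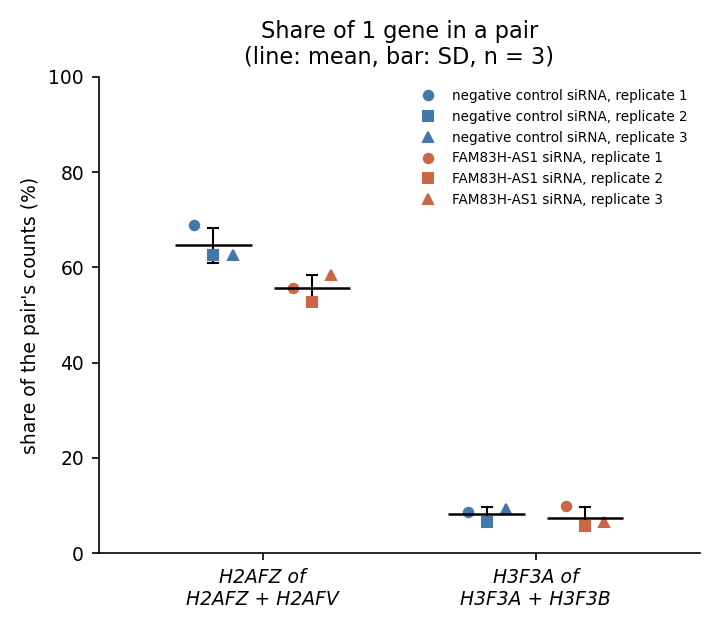
Share of H2AFZ in the counts of H2AFZ and H2AFV, and of H3F3A in those of H3F3A and H3F3B, in percent for each library, with a line at the mean and a bar for the SD. The share of H2AFZ lies between 62.5% and 68.9% in the controls and between 52.8% and 58.3% in the silenced libraries, while the shares of H3F3A overlap.

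Among the other H2A variants, H2AFX, whose product is phosphorylated at DNA breaks, had 96.4, 77.9 and 77.9 CPM in the controls and 72.9, 62.6 and 70.1 CPM in the silenced libraries. The groups did not overlap, but the log2 fold change of -0.29 (SE 0.10, 95% interval -0.51 to -0.07) missed the threshold, with an adjusted p of 0.0683 by edgeR and 0.0504 by DESeq2. It passed with rows of type mRNA only (adjusted p = 0.0439 by edgeR) and with all genes with at least 1 count (0.0114). The adjusted p ranged from 0.0594 to 0.204 with a library left out, and control replicate 1, the highest control, was the one without which it was 0.204. H2AFX is on chr11:119093854-119095467.

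H2AFY, the gene of macroH2A1, differed least among the members without overlap. It had 269.4, 286 and 273 CPM in the controls and 266, 267 and 268.8 CPM in the silenced libraries. The groups were separated by less than 1 SD of the controls, which was 8.93 CPM, and the log2 fold change was -0.05 (95% interval -0.19 to 0.09, adjusted p = 0.646 by edgeR). The antisense genes AC026691.1 and C5orf66 share 482 and 528 bases, or 15.97% and 17.5%, of the H2AFY exons, on the other strand. H2AFY2, the gene of macroH2A2, was at 0, so that H2AFY held all counts of the pair in every library. H2AFJ, on chr12:14774383-14778002, had 17.1, 12.3 and 13.7 CPM in the controls and 14.4, 11 and 12.6 CPM in the silenced libraries, with overlap and a log2 fold change of -0.17 (adjusted p = 0.461 by edgeR).

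The H3.3 genes did not pass the test. H3F3B, on chr17:75776434-75785893, had 265, 276 and 265 CPM in the controls and 260.3, 241 and 272 CPM in the silenced libraries, with a log2 fold change of -0.06 (95% interval -0.21 to 0.10, adjusted p = 0.612 by edgeR). H3F3A had 24.9, 19.3 and 27.3 CPM in the controls and 28.7, 14.7 and 19.0 CPM in the silenced libraries, with a log2 fold change of -0.21 (95% interval -0.66 to 0.25, adjusted p = 0.532 by edgeR). The groups overlapped for both, and silenced replicate 1 held the highest and silenced replicate 2 the lowest value of H3F3A. Its log2 fold change ran from -0.50 without silenced replicate 1 to -0.02 without silenced replicate 2, both short of the threshold.

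Few of the counts of H3F3A and its pseudogenes were in the row of H3F3A. H3F3A had 242, 223 and 461 counts in the controls and 294, 159 and 255 counts in the silenced libraries. H3F3AP4, with the same letters, had 525, 682 and 860 counts in the controls and 555, 546 and 649 counts in the silenced libraries. In all 6 libraries H3F3AP4 had more counts than H3F3A, and rows of 6 annotated pseudogenes together held 74.4% to 84.0% of the counts of H3F3A and its pseudogenes. How reads with several matches were counted is not given in the sources used here, and which locus the reads came from cannot be told apart by identical letters. With the pseudogene rows added, the log2 fold change of H3F3A was -0.13 (SE 0.0884, adjusted p = 0.329 by edgeR), with a standard error of 0.208 for the row alone. Its share of both H3.3 genes was then 28.97% in the controls in place of 8.15%. Rows were added by name, so that H3F3BP1 went to H3F3B although its letters are closer to those of H3F3A. The share with H3F3BP1 added to H3F3A was not computed. The share of H3F3A in the counts of H3F3A and H3F3B was 8.58%, 6.53% and 9.34% in the controls and 9.93%, 5.74% and 6.51% in the silenced libraries, with overlap (exact permutation test, two-sided, p = 0.7, adjusted p = 1.0).

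**Figure D3:**
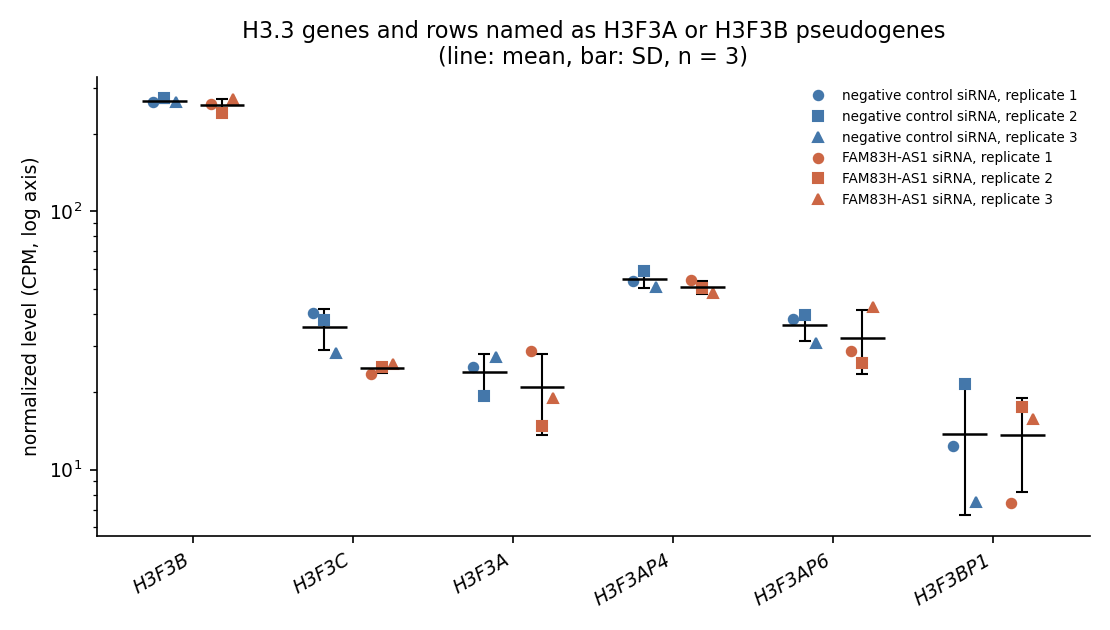
Normalized level in CPM (log axis) of the H3.3 genes H3F3B and H3F3A, the retrocopy H3F3C and 3 rows annotated as pseudogenes, for each library, with a line at the mean and a bar for the SD. H3F3AP4 lies above H3F3A in all 6 libraries, and H3F3C is lower in every silenced library than in every control.

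None of the 7 pseudogene rows tested passed the threshold by edgeR or DESeq2 or had an unadjusted p under 0.05. The rows with a mean of at least 10 counts had log2 fold changes of -0.10 for H3F3AP4, -0.15 for H3F3AP6, 0.01 for H3F3BP1, 0.13 for H2AFVP1, -0.47 for H2AFZP1, -0.18 for H2AFZP2 and -0.17 for H2AFZP3. H3F3BP1 lay between 7.42 and 21.5 CPM. The coding retrocopy H3F3C, which encodes H3.5 and matches H3F3B at 397 of 408 coding bases, had 40.5, 37.9 and 28.2 CPM in the controls and 23.5, 24.9 and 25.7 CPM in the silenced libraries. The groups did not overlap, and the row of H3F3C fell with a log2 fold change of -0.51 (SE 0.129, adjusted p = 0.0211 by edgeR), and of -0.67 (adjusted p = 0.0034) without control replicate 3, the lowest control. Of its coding 50-base words 26.7% occurred in H3F3B, and of its coding 100-base words 2.59%. H3F3B had a mean of 268 CPM in the controls against 35.5 CPM for H3F3C. How reads that match both were counted is not given, so that reads of H3F3B on this row cannot be told apart.

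The linker histone genes were lower on average without passing the test. H1FX had 132, 113 and 104 CPM in the controls and 93.3, 75.7 and 103 CPM in the silenced libraries. The groups did not overlap, although control replicate 3 and silenced replicate 3 lay close together, and the log2 fold change was -0.36 (SE 0.119, 95% interval -0.62 to -0.09, adjusted p = 0.0623 by edgeR). The adjusted p was 0.0405 without control replicate 3, 0.0381 without silenced replicate 3, 0.189 without control replicate 1, and 0.0225 by DESeq2, and it was 0.0385 with rows of type mRNA only and 0.000813 with all genes with at least 1 count. H1FX is on chr3:129314771-129316277, and H1FX-AS1 shares 22.9% of its exon bases on the other strand. H1FX-AS1 had between 30 and 64 counts per library, compared with 819 to 1757 for H1FX, and a log2 fold change of -0.16 (adjusted p = 0.632 by edgeR). H1F0, which is known to build up in differentiated and quiescent cells, had 94.6, 91.4 and 80.6 CPM in the controls and 86.6, 67.9 and 84.2 CPM in the silenced libraries, with overlap and a log2 fold change of -0.16 (95% interval -0.38 to 0.07, adjusted p = 0.325 by edgeR).

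**Figure D4:**
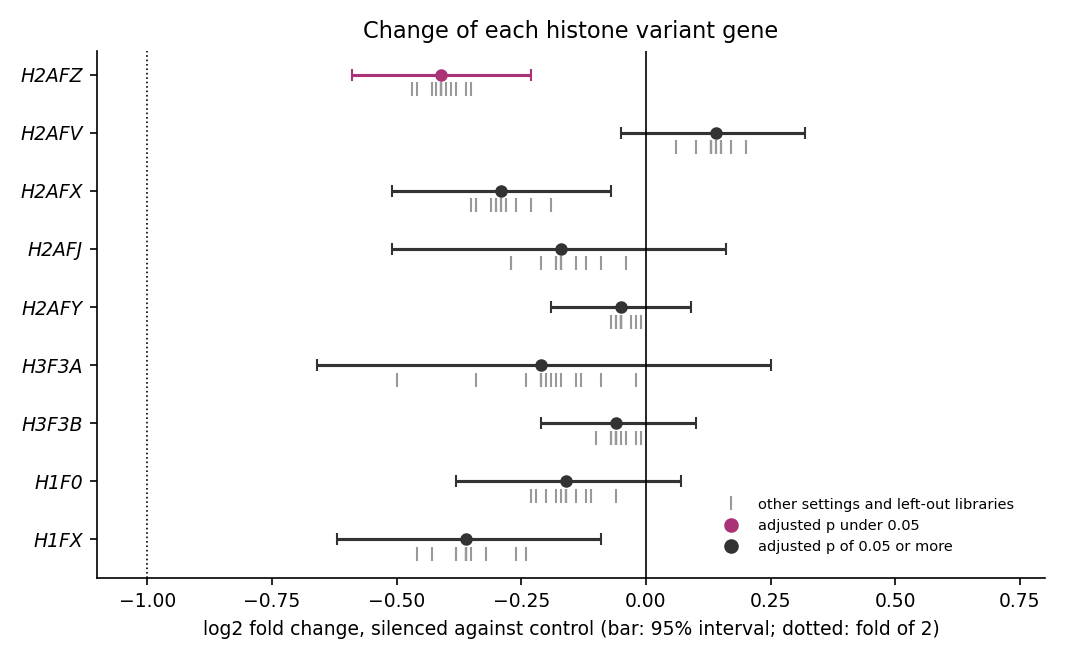
Log2 fold change of each tested member, silenced against control, with its 95% interval, and grey ticks for the values under the other settings and with each library left out. The interval of H2AFZ runs from -0.59 to -0.23, those of H2AFX and H1FX also lie below 0 without an adjusted p under 0.05, and none reaches the dotted line at a fold of 2.

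The sequence CCAATAA, chosen with earlier results of these data in view, was searched in the annotated 3′-UTRs on the transcript strand. It was found in 1 of the 10 members, H2AFJ, where it overlaps the polyadenylation signal. Of 11552 tested genes 12.3% held it, with a median log2 fold change of -0.09 against 0.01 for those without it. Because of how the word was chosen, these medians are not an independent result. H2AFZ, H2AFX and H1FX do not hold the word. The end of H2AFJ is shown with the word in capitals.
H2AFJ: cccggcgggagCCAATAAagttggtgaaaa

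The clustered, replication-dependent histone genes were examined for comparison. Of the 70 such genes counted, 41 were tested, and 25 fell and 0 rose past an adjusted p of 0.05 by edgeR, 23 of them by more than 2-fold. Of all genes tested, 8.27% fell past this threshold and 0.997% also by more than 2-fold. By DESeq2 25 of the 41 fell and 0 rose. The median log2 fold change of the 41 was -1.30, and all 41 values lay below 0. The filter on low counts asks for enough counts in only as many libraries as a group holds. A gene low in the silenced libraries can thus be tested through its controls alone, which limits what the median and the common direction show. Many of the 41 were highest in control replicate 3, whose sum over the 41 genes was 338 CPM, compared with 203 and 231 CPM in the other controls and 91.6 to 122 CPM in the silenced libraries. Without this library 11 fell past the threshold, 9 by more than 2-fold, and the median was -0.91. Of all 15230 genes then tested, 916 fell past the threshold and 101 also by more than 2-fold. With all libraries, 1261 and 152 of 15250 genes did. The medians by class were -1.35 for H1, -1.41 for H2A, -1.09 for H2B, -1.67 for H3 and -0.99 for H4, and without control replicate 3 they were -0.85, -0.94, -0.87, -1.05 and -0.48. The members did not share the position of control replicate 3, with a sum over the 9 tested of 1242 CPM there, 1306 and 1322 CPM in the other controls, and 1100 to 1209 CPM in the silenced libraries.

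**Figure D5:**
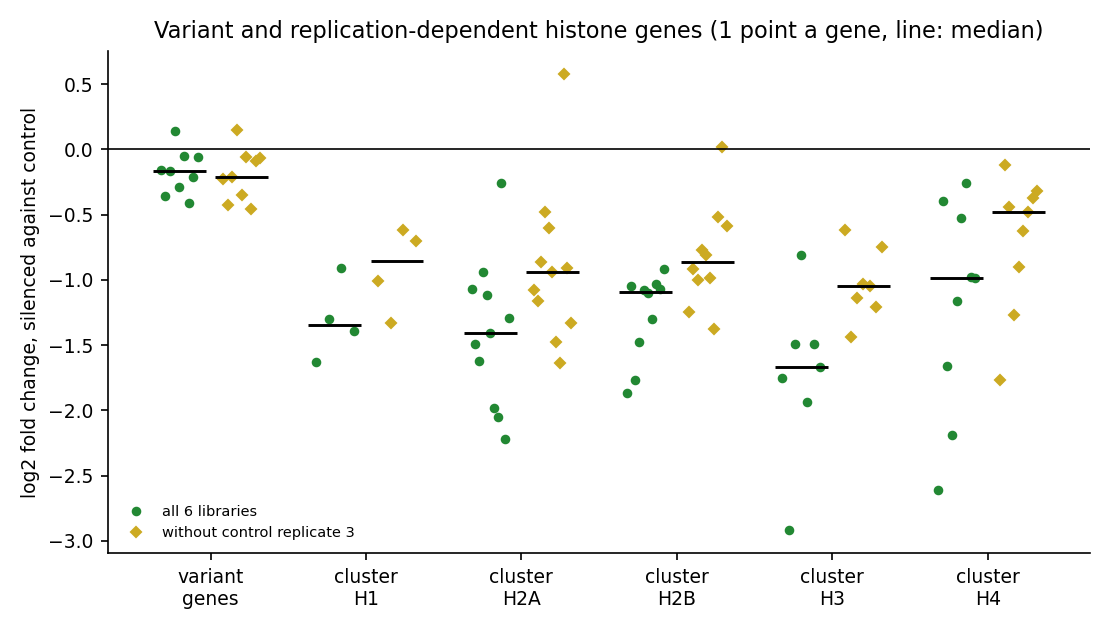
Log2 fold change, silenced against control, of the 9 tested variant genes and the 41 tested replication-dependent genes by class, with all 6 libraries and without control replicate 3, and a line at each median. The variant genes lie between -0.41 and 0.14 with all libraries, while the median of every class lies at -0.99 or lower and moves toward 0 without control replicate 3.

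Of the most abundant clustered genes, HIST1H2BK fell from 47.3 ± 5.75 to 19.1 ± 1.14 CPM (SD over 3 libraries each), with a log2 fold change of -1.30 (adjusted p = 4.8e-05 by edgeR), and of -1.38 without control replicate 3. HIST1H1C fell by 1.30 on the log2 scale and HIST1H2AC, whose loop is shown above, by 1.07, and without control replicate 3 the values were -1.33 and -1.08, both past the threshold. HIST1H3C fell by 2.92, with 14.2 CPM in control replicate 3 against 2.67 and 2.07 CPM in the other controls and 0.586 to 1.02 CPM in the silenced libraries, and its value without control replicate 3 was -1.44 (adjusted p = 0.0292 by edgeR). HIST1H2AE, HIST1H1E and HIST1H4H fell with log2 fold changes of -1.62, -1.39 and -1.16 with all libraries and did not pass the threshold without control replicate 3, while HIST1H3D and HIST1H2BD fell with -1.49 and -1.05 and passed it also without this library. HIST1H4C, with a log2 fold change of -0.40, did not pass the threshold (adjusted p = 0.172 by edgeR).

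Factors that handle the variants were examined in lists, against 17.0% of all genes past an adjusted p of 0.05 in either direction. Of 18 genes for the exchange of H2A.Z, 3 fell and 0 rose, with a median log2 fold change of -0.05. They were RUVBL1, a helicase shared by the SRCAP, p400 and INO80 complexes (log2 fold change of -0.36), BRD8, a bromodomain subunit of the p400 complex (-0.34), and SRCAP, the ATPase that loads H2A.Z (-0.26, adjusted p = 0.0457 by edgeR). SRCAP was past the threshold with all libraries and not without control replicate 3 (adjusted p = 0.116).

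Of 8 genes for the deposition of H3.3, 1 rose, ATRX, from 80.2 ± 3.56 to 97.9 ± 0.944 CPM (SD over 3 libraries each), with a log2 fold change of 0.29 (adjusted p = 0.0197 by edgeR, and 0.0661 without control replicate 3). Of 15 general histone chaperones 3 fell and 0 rose, with a median of -0.04. These were IPO4, an importin that carries H3 and H4 into the nucleus, with a log2 fold change of -0.50 (adjusted p = 0.00199 by edgeR), NAP1L4, a chaperone of H2A and H2B, with -0.27, and RBBP4, a subunit of CAF-1, with -0.25 (adjusted p = 0.0924 without control replicate 3). Of 13 genes of H2A.X damage signalling 2 rose and 0 fell, the ubiquitin ligase RNF168 with 0.32 and TP53BP1 with 0.23, and 0 did without control replicate 3.

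Of 11 genes of histone mRNA 3′-end processing 2 rose and 2 fell, with a median of 0.00. CASP8AP2, a factor of histone gene transcription, and SYMPK, the scaffold of the cleavage complex, rose with log2 fold changes of 0.30 and 0.28. LSM10, a part of the U7 particle, and CSTF2, a cleavage stimulation factor, fell with -0.44 and -0.27. Without control replicate 3, CASP8AP2 (adjusted p = 0.166 by edgeR) and CSTF2 (adjusted p = 0.0735) did not pass the threshold, while SYMPK and LSM10 did. Of the 18 S phase and proliferation genes 0 passed the threshold by edgeR, with log2 fold changes between -0.23 and 0.22, 2 were lower at an unadjusted p under 0.05, the thymidylate synthase gene TYMS and the cyclin gene CCNB1, and 1, TYMS, was lower by DESeq2 (adjusted p = 0.0361), names that were chosen after their values were seen. Of 11 other histone variants 3 were tested. Beside H3F3C, these were CENPA, the H3 variant of centromeres, with -0.34 (adjusted p = 0.0594 by edgeR), and H2BFS with -1.53 (adjusted p = 0.0689 by edgeR).

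Of the 5 epithelial markers KRT18 fell from 1316 ± 75.3 to 977 ± 25.2 CPM (SD over 3 libraries each), and the other 4 did not pass the threshold. KRT8 had a log2 fold change of -0.20 (adjusted p = 0.121 by edgeR), and CDH1, at 0.691 to 0.828 CPM in the controls and 1.07 to 1.66 CPM in the silenced libraries, had 0.82 without overlap of the groups (adjusted p = 0.112 by edgeR), both named after their values were seen. The 9 markers of other cell types summed to 157 to 170.3 CPM in the controls and 266 to 298 CPM in the silenced libraries, and nearly all of this difference lay in CD68, a lysosomal protein used as a macrophage marker, which rose from 130.2 ± 9.31 to 239 ± 14.7 CPM. Of the other markers of this list, 4 had under 5 counts in every library, CD3E with none. The part of these markers in the levels of the histone variants was not tested.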

How the data were processed

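RNA-Seq of A549 cells was made on an Ion Proton instrument from total RNA, with 3 libraries transfected with FAM83H-AS1 siRNA and 3 with a negative control. The authors mapped reads with MapSplice and compared groups with DESeq; the deposited table holds their counts per gene, without normalization, and GRCh37 is the build in the submitters' processing notes. How strand and reads with several matches were handled, and whether poly(A) RNA was selected, is not given in the sources used here.

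All genes passing filterByExpr were fitted with the quasi-likelihood F test of edgeR 4.0.16 (R 4.3.3) after TMM normalization, with Benjamini-Hochberg adjustment. CPM were computed with the TMM-scaled library sizes. Shares within gene pairs were compared with exact permutation tests (scipy 1.17.1). Locations and sequences are from GENCODE 29 on GRCh38, in which all 10 symbols were found. The edgeR and DESeq2 fits were tested on simulated counts, while the sequence searches and the share tests were not. The simulation gave all genes the same dispersion and held no library that stood apart, as control replicate 3 does here. Its pass rule covered changes of 2-fold, larger than that of H2AFZ. Replicate pairs differed by more than counting noise.

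The members and lists were chosen with earlier results of these data known. Named were all members, FAM83H-AS1, in each list at most 3 higher and 3 lower genes with the largest change and an adjusted p under 0.05, at most 2 clustered histone genes a class by mean count, and other variants and pseudogenes with a mean of at least 10 counts. Alternatives were DESeq2 1.42.0, RLE size factors, library size only, other filters, rows of type mRNA, thinning, a replicate block, each library left out, and an adjusted p of 0.01. The sum of gene and pseudogene rows was chosen after seeing the data.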

Additional observations from a re-analysis of the deposited data

How the results depend on the processing

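H2AFZ kept its direction and an adjusted p under 0.05 in all 15 other settings run, with log2 fold changes between -0.47 and -0.35, and each of the other tested members kept its direction in every setting run for it. Of 9 tested members, 7 also kept their side of the threshold throughout. The log2 fold change of H2AFX passed an adjusted p of 0.05 with all genes with at least 1 count (-0.30), with rows of type mRNA only (-0.29) and with the replicate block (-0.29), and ranged from -0.35 to -0.19 with a library left out. That of H1FX passed by DESeq2 (-0.36), with all genes with at least 1 count (-0.36), with rows of type mRNA only (-0.36) and with the replicate block (-0.36), and ranged from -0.46 to -0.24 with a library left out, past the threshold without control replicate 3 or silenced replicate 3. So the number of members past the threshold, all of them lower, was 2 by DESeq2, 3 with all genes with at least 1 count, 3 with rows of type mRNA only and 3 with the replicate block, and 1 to 2 with a library left out. The number of all genes past it was 2379, 3449, 2850 and 3449 in the first 4 of these, and 2595 of 15250 in the reported fit. With all genes with at least 1 count more genes were tested, and with rows of type mRNA only fewer. The equal numbers of 3449 are thus not equal shares of the genes tested. The cause of the changes in these numbers was not tested. With all genes with at least 1 count, the standard error of H1FX was 0.0891, compared with 0.119. Over all genes, the number past both thresholds was 326, and 583 with all genes with at least 1 count, 199 with at least 10 counts in every library and 148 at an adjusted p under 0.01, at which 903 genes were left in place of 2595 before the limit on fold. With a library left out these numbers ranged from 200 to 335 and from 1225 to 1962, the lowest without silenced replicate 1. The difference in the share of H3F3A in the counts of H3F3A and H3F3B changed sign without silenced replicate 2, to 0.0715 percentage points. It ranged from -2.02 to 0.0715 with a library left out. The exact permutation test (two-sided) gave p = 0.2 or more, but with 2 libraries against 3 it cannot go lower, so that nothing follows from it. Without silenced replicate 1, p was at this limit of 0.2 and the groups did not overlap. The replicate numbers were not taken as pairs: same-numbered libraries had correlated deviations (r = 0.124, 0.149 and 0.067), not all above 0.1, although every library correlated best with its own number, a hint from the data and not the design. Depth limits what can be said of H2AFY2. The standard error of H3F3A was 0.208 in the reported fit and 0.210 with counts thinned to the smallest library.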
